A study of Mus musculus with 3 samples.

Results

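Microglia with transcripts of S phase, the part of the cell cycle in which DNA is copied, were followed in fetal mouse brain at embryonic age E18.5. They were chosen cell by cell, from the genes each cell was seen to express, and not by DNA content. A cell was called a microglia when at least 3 of the 6 genes P2ry12, Tmem119, Sall1, Siglech, Gpr34 and Slc2a5 had a UMI (a unique molecular identifier, 1 counted transcript), Ccr2 had none, and at most 1 of the 5 border macrophage genes Mrc1, F13a1, Cd163, Lyve1 and Ms4a7 had one. It was called S phase when at least 4 of the 10 genes Dtl, Ung, Hells, Ccne2, Uhrf1, Clspn, Mcm4, Mcm5, Mcm6 and Cdc6 were detected, together with at most 3 of the 10 genes of G2 and mitosis Mki67, Top2a, Cdk1, Ccnb1, Ccnb2, Birc5, Cenpf, Nusap1, Hmmr and Ube2c. The rule found 2090 S phase microglia among 22018 microglia (9.49%) and 36354 cells that passed the quality filter (5.75%). They are compared below with 5195 microglia in G2 and M, which had at least 4 of the G2/M genes, and with 11124 non-cycling microglia, which had at most 1 gene of either list.

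The study sequenced single CD11b+ cells, isolated from fetal brain on a Percoll gradient and then with magnetic beads against CD11b, a chain of a myeloid integrin. The 3 libraries stand for 1 group each: Gzmb-cko given poly(I:C), with the genotype written as Ncr1-cre;gzmbf/f, then Ncr1-cre given poly(I:C), and Ncr1-cre given saline. All 3 groups carry Ncr1-cre, which acts in natural killer cells and other innate lymphoid cells, so the control libraries share it, and microglia are not its known target. Poly(I:C), a double-stranded RNA made in the laboratory, is used to imitate infection by a virus. Granzyme B, the product of Gzmb, is a serine protease that cytotoxic lymphocytes release into target cells. The labels speak of groups of pregnant mice. The sources used here do not give the dose, the day of injection, how many fetuses went into a library or whether the mother or the fetus carried the genotype. A Gzmb-cko library with saline was not analysed here. Where a sentence gives 3 values for a class, they belong to the Gzmb-cko poly(I:C), the Ncr1-cre poly(I:C) and the Ncr1-cre saline library. With 1 library per group there is no test between groups, and the comparisons of libraries below have no replicate check.

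A cell that enters S phase has committed to copying its genome. Cyclin E and its kinase release the E2F factors, which switch on the genes for origin licensing, DNA polymerases, nucleotide synthesis and new chromatin, and the MCM helicase loaded in G1 is then fired at origins. Cyclin A, the histone genes and the mitotic genes follow as replication proceeds. Fetal microglia descend from yolk sac progenitors and populate the brain largely by dividing in place.

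E2F factors bind short GC-rich sequences close to the start site, and promoters of S genes of the rule are printed because most of them carry such a sequence. The 300 bases around each start site (250 before and 50 after), from RefSeq on build GRCm38.p6, were searched on both strands for the 4 sequences TTTGGCGC, TTTCGCGC, TTTCCCGC and TTTGCCGC, which can overlap each other on opposite strands. Matches, or their complement where they lie on the other strand, are in capitals. The table of promoters held 8 of the 10 S genes, and 7 of these 8 had a match. Promoters of 4 of the genes follow.
Mcm6, chr1:128359656-128359955, minus strand: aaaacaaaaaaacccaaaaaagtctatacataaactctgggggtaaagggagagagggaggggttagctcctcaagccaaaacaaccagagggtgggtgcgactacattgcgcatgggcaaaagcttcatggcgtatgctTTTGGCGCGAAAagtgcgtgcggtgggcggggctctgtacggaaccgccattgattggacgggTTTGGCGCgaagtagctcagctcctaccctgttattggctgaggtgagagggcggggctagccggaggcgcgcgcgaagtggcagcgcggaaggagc
Dtl, chr1:191575495-191575794, minus strand: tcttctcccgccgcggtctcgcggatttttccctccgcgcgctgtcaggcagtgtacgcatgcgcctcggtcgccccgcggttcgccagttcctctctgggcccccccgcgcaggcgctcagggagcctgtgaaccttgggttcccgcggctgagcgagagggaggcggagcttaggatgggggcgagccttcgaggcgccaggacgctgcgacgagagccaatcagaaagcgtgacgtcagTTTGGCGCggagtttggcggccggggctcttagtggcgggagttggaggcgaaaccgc
Mcm5, chr8:75109259-75109558, plus strand: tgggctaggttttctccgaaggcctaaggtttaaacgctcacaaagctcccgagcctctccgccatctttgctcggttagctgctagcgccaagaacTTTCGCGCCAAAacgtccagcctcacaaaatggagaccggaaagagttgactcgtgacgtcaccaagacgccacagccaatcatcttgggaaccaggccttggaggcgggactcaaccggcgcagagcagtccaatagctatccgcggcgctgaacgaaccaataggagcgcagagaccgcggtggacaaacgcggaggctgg
Hells, chr19:38930740-38931039, plus strand: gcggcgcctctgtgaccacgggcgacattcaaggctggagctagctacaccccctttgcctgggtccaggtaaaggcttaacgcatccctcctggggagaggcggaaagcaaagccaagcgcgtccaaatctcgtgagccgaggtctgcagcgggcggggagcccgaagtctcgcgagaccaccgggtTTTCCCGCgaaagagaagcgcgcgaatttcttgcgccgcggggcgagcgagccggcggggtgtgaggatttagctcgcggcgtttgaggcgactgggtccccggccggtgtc
Mcm6 and Mcm5 encode subunits of the replicative helicase, Dtl the adaptor that targets the licensing factor CDT1 for destruction, and Hells a chromatin remodeler. Of the 10 G2/M genes of the rule, 1 had a match (10%), 704 of all 27025 genes in the table did (2.61%), and so did 444 of the 9153 tested genes with a promoter entry (4.85%). Among genes that the rule did not use and that were at least 4-fold higher in S phase than in non-cycling microglia, 34 of the 166 with a promoter entry had a match (20.5%). Genes lower in S phase had one in 35 of 1858 cases (1.88%). These are letter matches in a short window and not sites shown to be bound.

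The libraries held 105574073, 85442198 and 89295907 UMIs in 15306, 14887 and 13820 cell barcodes, and their lowest barcode totals were 500 UMIs in both poly(I:C) libraries and over 3000 UMIs in the saline library. Between 63 and 71 barcodes were shared by each pair of libraries. Gzmb had 2, 127 and 61 UMIs in 1, 6 and 4 cells of those that passed the filter, and none in S phase microglia, which allows a share of up to 0.335, 0.573 and 0.448% of these cells to hold a Gzmb UMI. This limits the cells with a UMI and not the cells that express the gene. The counts come from the 3′ ends of transcripts, so they do not check a deletion elsewhere in the gene. The proportion of cells with Xist and no Y-linked transcript, of all cells with either alone, was 45.0, 68.9 and 63.8% in S phase microglia, against 47.8, 72.5 and 59.7% in non-cycling ones, so the libraries differed in the sex of the cells, whose part in the results was not tested. Some S phase cells also held RNA of other cells: 34, 33 and 92 of them (3.79, 6.30 and 13.7%) had over 2% hemoglobin UMIs or at least 4 markers of another cell class, and are called mixed cells. Hemoglobin made up 1.18, 3.54 and 5.96% of all UMIs of S phase microglia, and 0.0589, 0.122 and 0.443% once the mixed cells were left out. For comparisons of libraries, list medians, counts and the genes named are also given without them where that turned the direction or moved the value by over 1.5 times.

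S phase microglia expressed the genes that define microglia, in shares close to those of non-cycling microglia. P2ry12, a purine receptor, was detected in 98.7, 98.9 and 97.5% of S phase cells, against 97.8, 98.5 and 95.9% of non-cycling cells. Sall1, a transcription factor of microglial identity, was detected in 66.6, 68.7 and 60.3% of S phase and 60.2, 61.9 and 56.1% of non-cycling cells. Because the rule required 3 of these genes, this is a description of the choice. Mrc1, which the rule tolerated as the single permitted border macrophage gene, had a UMI in 49.0, 43.7 and 42.8% of S phase cells, against 32.5, 30.5 and 30.6% of non-cycling cells. Its level was 172, 175 and 167 CPM (counts-per-million, relative to all UMIs of the class) in S phase cells, against 122, 133 and 123 CPM in non-cycling cells. Mrc1 encodes the mannose receptor and was higher in S phase than in non-cycling cells in every library by its level as well as by its share. In G2 and M cells it was higher still, with a UMI in 54.4, 52.5 and 48.7% of cells and 189, 205 and 173 CPM. The border macrophage markers outside the rule summed to 460.4, 392 and 499 CPM in S phase cells and 427, 377 and 437 CPM in non-cycling cells, mostly Stab1, with 8, 7 and 7 of 8 markers detected in S phase cells.

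The 10 S genes chose the cells, and their levels are given without a test. Mcm6 had 203, 238 and 225 CPM in S phase cells, 88.6, 82.8 and 71.5 CPM in G2 and M cells and 15.1, 14.3 and 15.1 CPM in non-cycling cells. Dtl had 147, 162 and 152 CPM, 37.2, 44.4 and 26.8 CPM and 3.11, 2.75 and 2.68 CPM in the same 3 classes. Clspn, which encodes the checkpoint mediator claspin, stood out among the 10, being about as high in G2 and M in both poly(I:C) libraries: 76.2, 77.2 and 94.1 CPM in S phase cells and 72.3, 83.9 and 64.3 CPM in G2 and M cells. Among the G2/M genes that the rule limited, Top2a, the topoisomerase that untangles replicated DNA, was detected in 39.0, 39.3 and 43.3% of S phase cells and Cdk1 in 42.1, 36.3 and 29.1%, while Hmmr was detected in 1.45, 0.382 and 1.34%. The S phase cells thus differed widely in which of the permitted G2/M genes they carried.

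**Figure D1:**
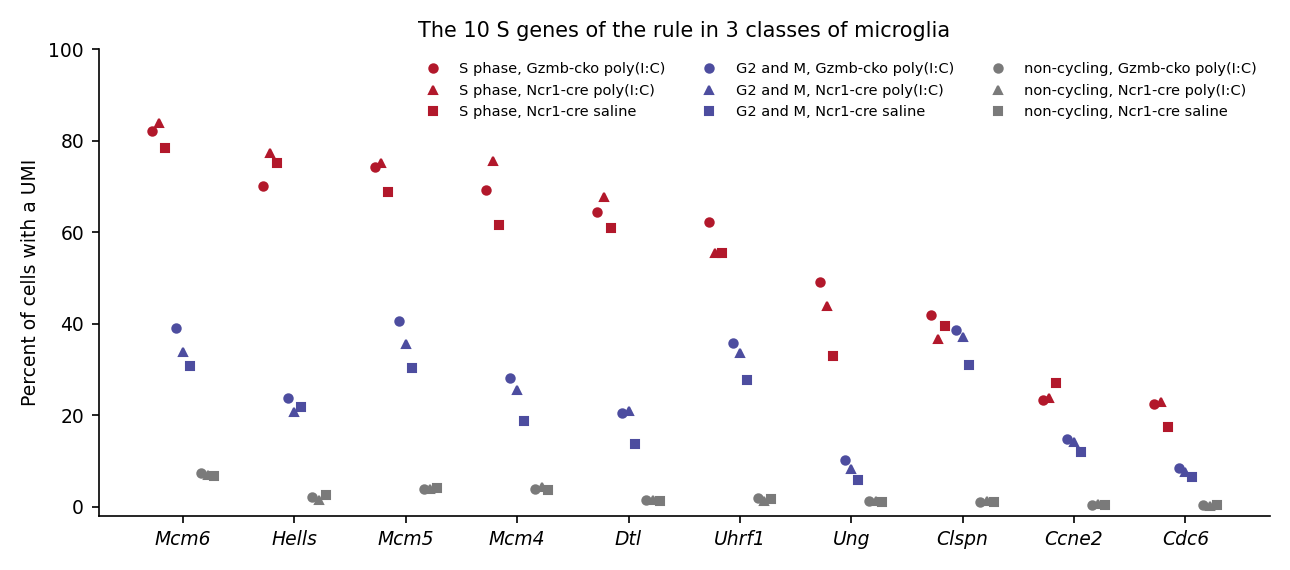
Percent of microglia with at least 1 UMI of each of the 10 S genes of the rule, by class and library (1 point per library). Every gene was detected in more S phase cells than non-cycling cells, where no gene exceeded 7.33% in any library, and Clspn was detected in 31.0 to 38.6% of G2 and M cells.

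At the border of the rule, 267, 168 and 259 S phase cells had exactly 4 S genes, and 352, 234 and 319 cells just outside it had 3. Their median UMI totals were 6677, 6493 and 5495 inside, against 6326.5, 6075.5 and 4995 outside. On the side of the G2/M genes, 129, 80 and 116 members had 3 of them, and 106, 52 and 91 cells with 4 were placed in G2 and M. With 4 or more, 583, 297 and 437 cells of the G2 and M class had at least 4 S genes too. The S and G2/M parts of the rule were also applied to postmitotic cells, named by their markers, to see how often cells that do not replicate meet them. They were met by 0 of 71, 3 of 126 and 1 of 28 neurons, whose median totals were 3766, 4050 and 3900.5 UMIs, and by 0 of 17, 1 of 122 and 0 of 20 mature neutrophils.

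The S phase share of microglia was higher in the Gzmb-cko poly(I:C) library, and the libraries were nearly equal once cells were brought to the same depth. It was 10.8% in the Gzmb-cko poly(I:C) library (896 of 8323, exact Clopper-Pearson 95% interval 10.1 to 11.5), 8.78% in Ncr1-cre with poly(I:C) (524 of 5971, 8.07 to 9.52) and 8.67% in the Ncr1-cre saline library (670 of 7724, 8.06 to 9.32). These intervals cover counting error only. When each cell was thinned to 3000 UMIs the shares were 5.13% in Gzmb-cko with poly(I:C), 4.90% in Ncr1-cre with poly(I:C) and 5.09% in Ncr1-cre with saline, with intervals that overlapped. Thinning left out 342, 491 and 0 microglia with fewer UMIs. Among cells with at least as many UMIs as the lowest barcode of the saline library, the shares were 11.2, 9.58 and 8.67%, and without mixed cells they were 10.9, 8.83 and 8.79%.

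The libraries differed more in G2 and M. That class held 23.9% of microglia in Gzmb-cko with poly(I:C) (23.0 to 24.9), 18.4% in Ncr1-cre with poly(I:C) (17.4 to 19.4) and 27.3% in Ncr1-cre with saline (26.3 to 28.3), and 18.1, 14.7 and 21.5% after thinning. S phase cells made up 31.0% (29.3 to 32.7) of all S phase and G2 and M cells in the Gzmb-cko poly(I:C) library, 32.3% (30.0 to 34.6) in Ncr1-cre with poly(I:C) and 24.1% (22.6 to 25.8) in the Ncr1-cre saline library. After thinning these were 22.1% in Gzmb-cko with poly(I:C) (20.1 to 24.2), 24.9% in Ncr1-cre with poly(I:C) (22.3 to 27.8) and 19.1% in Ncr1-cre with saline (17.3 to 21.03), and without mixed cells 31.4, 32.5 and 24.5%. Both poly(I:C) libraries lay above the saline library in this proportion, and after thinning the intervals of the Gzmb-cko poly(I:C) and saline libraries overlapped. Whether this difference would be seen between further litters was not tested.

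**Figure D2:**
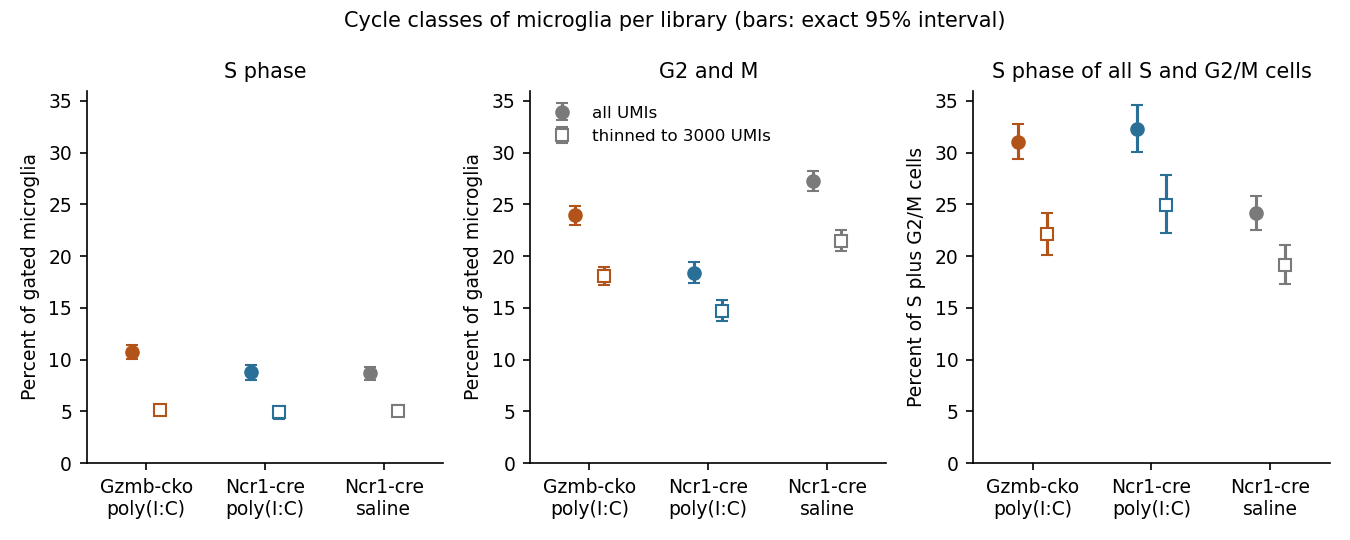
Share of microglia in S phase and in G2 and M, and the share of S phase among both classes, per library, with exact 95% intervals. Filled circles use all UMIs and open squares cells thinned to 3000 UMIs; the thinned S phase shares lay between 4.90 and 5.13% in all 3 libraries.

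S phase microglia held more RNA than non-cycling ones and less than those in G2 and M. Their median totals were 7436.5, 7167 and 5591.5 UMIs, against 5379, 4994 and 4290 UMIs in non-cycling cells and 8475.5, 7735 and 6096 UMIs in G2 and M cells. The median in S phase cells was 1.38, 1.44 and 1.30 times that of non-cycling cells of the same library. A rule that requires detected genes favours cells with more UMIs, and how much of this difference it makes was not tested. Scrublet called 26, 15 and 5 of the S phase cells doublets, and they were kept.

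For the comparison with non-cycling microglia, UMIs were summed per class in each library and the 3 libraries served as replicates of a difference within each library (edgeR quasi-likelihood test, library as a block). The classes were separated by cycle genes in the same cells, so these calls describe the class that was chosen and are not independent support for it. Of 12088 genes tested, 2593 were higher in S phase (21.5%) and 2414 were lower (20%) at an adjusted p under 0.05, and the median log2 fold change of all genes was -0.03. Genes of the rule are not among these counts. With the mixed cells left out, 2711 were higher and 2393 lower. Folds are S phase over non-cycling, and log2 fold changes are given ± their standard error. The 3 libraries differ in treatment or genotype, so the spread behind the test holds that difference too.

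Origin licensing and helicase genes were higher almost throughout. Of 24 tested, 23 were higher and none lower, with a median log2 fold change of 2.68. Mcm10 (chr2:4989714-5012791, GRCm38), which helps the helicase to fire, had 35.1, 37.0 and 38.3 CPM in S phase cells, against 0.943, 0.648 and 1.23 CPM in non-cycling cells. No S phase library overlapped a non-cycling one, and the log2 fold change was 5.24 ± 0.15. Ticrr, which recruits CDC45 to origins, and Cdc45 itself had log2 fold changes of 5.06 ± 0.22 and 4.34 ± 0.17. The helicase subunits Mcm3 and Mcm7 had 2.56 ± 0.05 and 3.03 ± 0.06, and geminin (Gmnn), the inhibitor of relicensing, had 2.98 ± 0.06. Of the origin recognition complex, Orc1, the subunit that is renewed each cycle, had 4.19 ± 0.23, whereas Orc3 had 0.35 ± 0.08 and Orc4, at -0.03 ± 0.07, did not pass the test.

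Polymerase, clamp and Okazaki fragment genes were higher in 29 of 30 cases, with a median of 1.93. Pole, the catalytic subunit of the leading-strand polymerase, had 25.4, 27.7 and 33.1 CPM in S phase cells, against 0.820, 0.971 and 1.34 CPM in non-cycling cells, a log2 fold change of 4.75 ± 0.15. DNA ligase 1 (Lig1) had 137, 121 and 183 CPM in S phase cells, against 16.4, 12.7 and 19.8 CPM in non-cycling cells. Pcna, the sliding clamp, had 186, 191 and 159.9 CPM in S phase cells, against 51.7, 52.99 and 39.1 CPM in non-cycling cells, and its log2 fold change of 1.86 ± 0.05 was smaller than that of Dscc1 (3.99 ± 0.16) and Chtf18 (3.48 ± 0.33), parts of a clamp loader. Pold4, the small subunit of polymerase delta that is degraded after DNA damage and in S phase, was the 1 gene of the list that fell, at -0.47 ± 0.05.

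Nucleotide synthesis followed, with 20 of 21 genes higher, 1 lower and a median of 1.47. Tk1, thymidine kinase, had a log2 fold change of 3.61 ± 0.12, Tyms 2.80 ± 0.07 and Dut, which clears dUTP, 3.09 ± 0.06. Rrm2, the small subunit of ribonucleotide reductase, had 49.2, 42.3 and 57.4 CPM in S phase cells, against 2.34, 2.27 and 2.51 CPM in non-cycling cells. Its call ended when S phase was set against all other microglia together, where the log2 fold change was 0.10, since Rrm2 was higher still in G2 and M. The gene that fell was Samhd1 (-0.31 ± 0.06), which breaks nucleotides down.

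Regulators of the G1/S transition were mixed: 23 of 29 were higher, 4 lower, and the median was 1.02. Cyclin E1 (Ccne1), whose partner gene Ccne2 is in the rule, had 36.4, 35.1 and 33.4 CPM in S phase cells, against 1.76, 1.94 and 1.56 CPM in non-cycling cells, which is 19.3-fold. The repressor E2Fs E2f7 and E2f8 had log2 fold changes of 4.93 ± 0.28 and 4.77 ± 0.18, the activator E2f1 2.39 ± 0.07 and Mybl2, a partner in the switch to G2 genes, 4.75 ± 0.27. The D cyclin Ccnd1 and the kinase Cdk4 changed less, at 0.74 ± 0.04 and 0.81 ± 0.04. The 4 that fell are the kinase inhibitors Cdkn2d (-0.54 ± 0.13), Cdkn1c (-0.49 ± 0.10), Cdkn1b (-0.38 ± 0.08) and Cdkn1a (-0.27 ± 0.07).

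Replication checkpoint and repair had the highest median of the lists, 3.24, with 25 of 26 genes higher and none lower. Brca1 (chr11:101488764-101551955), of homologous recombination, had 27.6, 34.2 and 33.1 CPM in S phase cells, against 0.533, 0.701 and 1.34 CPM in non-cycling cells. Rad51ap1, Brip1, Exo1 and Rad54b, which act in the same pathway, had log2 fold changes of 4.76 ± 0.10, 4.70 ± 0.15, 4.95 ± 0.18 and 4.78 ± 0.27. Parp1, which senses strand breaks, changed less (0.86 ± 0.04). Tonsl, at -0.03 ± 0.05, did not pass the test. By contrast, p53 targets were not higher as a list: 1 of 14 was higher, 6 were lower and the median was -0.29. The 1 higher was Aen (0.41 ± 0.08), an exonuclease, and Mdm2 (-0.06 ± 0.07) did not pass the test.

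Chromatin assembly and DNA methylation genes were higher in 21 of 21 cases, with a median of 1.88. Chaf1a, the large subunit of the chromatin assembly factor that follows the fork, had 64.1, 60.4 and 65.8 CPM in S phase cells, against 3.03, 2.59 and 4.63 CPM in non-cycling cells. Asf1b and Chaf1b had 3.62 ± 0.12 and 3.53 ± 0.12. The histones themselves split: of 42 replication-dependent histone genes tested, 18 were higher, 10 lower and the median was 0.44. The balance depended on which cells and how many UMIs entered: with at most 1 G2/M gene 7 of 39 were higher, 9 lower and the median turned to -0.01, and after thinning to 3000 UMIs 19 of 36 were higher, 4 lower and the median was 1.25. Hist1h1b, a linker histone, had 32.4, 104 and 57.2 CPM in S phase cells, against 5.08, 24.4 and 7.13 CPM in non-cycling cells, with a log2 fold change of 2.42 ± 0.12. Hist1h2bc had 47.5, 51.1 and 55.8 CPM in S phase cells, against 119.7, 122 and 119.9 CPM in non-cycling cells, and Hist3h2a and Hist1h1c fell too, at -1.44 ± 0.10 and -1.10 ± 0.06. H1f0, the replacement linker histone of resting cells, fell with them (-0.93 ± 0.06). The libraries capture polyadenylated RNA, which most replication-dependent histone transcripts are not, so these levels are those of the captured part, and near-identical copies share reads.

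Cohesion genes were higher in 9 of 11 cases, with a median of 0.46 led by Esco2, the acetyltransferase that locks cohesin in S phase (3.83 ± 0.23), and Cdca5 (2.68 ± 0.23). Mitotic genes outside the rule were already higher than in non-cycling cells, 33 of 35 with a median of 2.31, among them the spindle checkpoint kinase Ttk (4.23 ± 0.28) and the condensin subunit Smc2 (2.61 ± 0.06). Pttg1, securin, was the 1 that fell (-0.31 ± 0.09). The rule allowed 3 G2/M genes, so some mitotic RNA was let in. Genes of ribosome biogenesis and Myc were higher in 16 of 16 cases with a median of 0.65. Nop56, a core protein of the small nucleolar particles, had 200.3, 217 and 194 CPM in S phase cells, against 83.8, 90.1 and 81.2 CPM in non-cycling cells, with a log2 fold change of 1.22 ± 0.04.

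**Figure D3:**
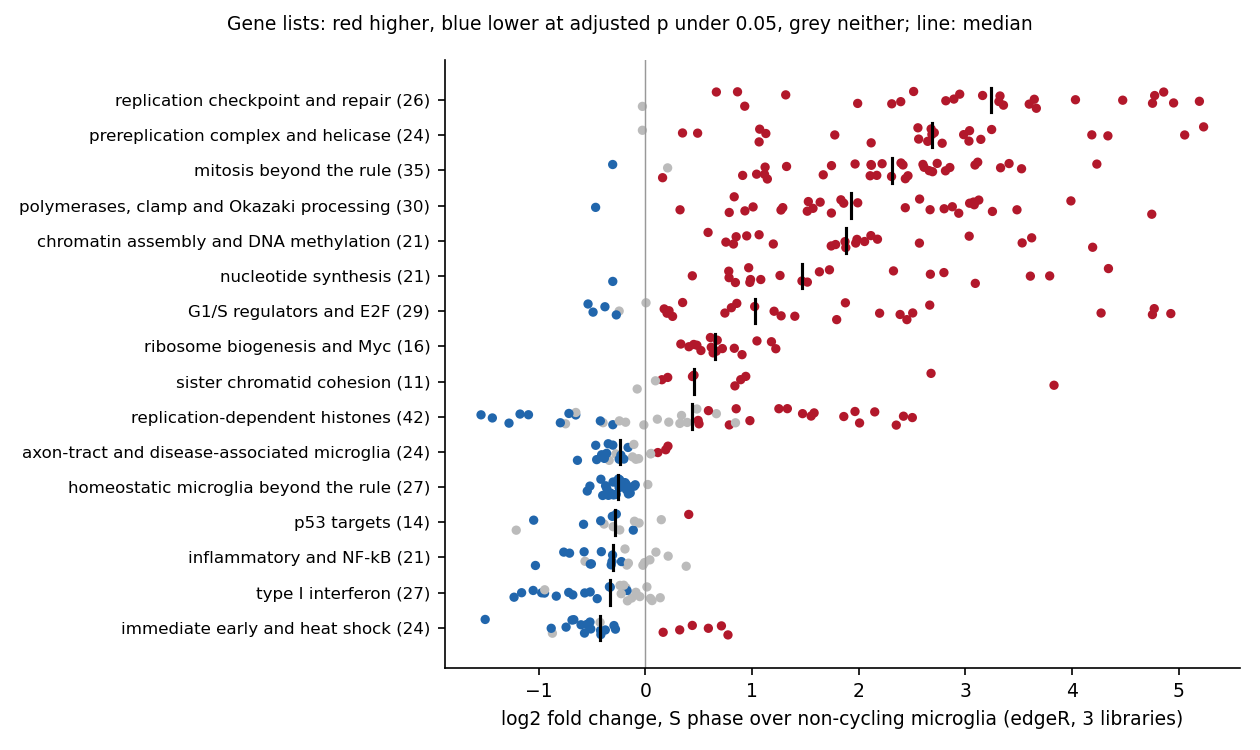
log2 fold change of each tested member of 16 gene lists, S phase over non-cycling microglia, with the number tested in brackets and the list median as a line. Members of the replication lists lay to the right, with medians of 1.47 to 3.24 for checkpoint and repair, licensing, polymerases, chromatin assembly and nucleotides, and members of the microglial and inflammatory lists lay close to and below 0.

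Against this, S phase microglia carried a slightly lower share of the transcripts of microglial function. Of 27 homeostatic genes outside the rule, none was higher and 26 were lower, with a median log2 fold change of -0.25. Cst3, cystatin C, had 8306, 7305 and 6398 CPM in S phase cells, against 10674, 9761 and 7905 CPM in non-cycling cells, a log2 fold change of -0.40 ± 0.02. The complement genes C1qa, C1qb and C1qc had -0.30 ± 0.02, -0.24 ± 0.02 and -0.25 ± 0.02, so the lowering was small and of similar size among them. For most of them the lower share did not go with fewer UMIs per cell, as S phase cells held more UMIs in all. Cst3 had a mean of 69.5, 58.3 and 40.9 UMIs per S phase cell, against 63.9, 52.7 and 39.2 UMIs per non-cycling cell. Per cell, 24 of the 27 homeostatic genes were higher in S phase in all 3 libraries and none was lower in all 3, beside 77.3% higher and 1.87% lower for all tested genes.

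Genes of axon-tract and disease-associated microglia were lower in 13 of 24 cases and higher in 3, with a median of -0.24. Apoe, the lipid carrier, had 13110.5, 10868 and 11270.0 CPM in S phase cells, against 16989, 15368 and 14676 CPM in non-cycling cells (-0.46 ± 0.02). The 3 that were higher are Lpl (0.21 ± 0.03), Mif (0.19 ± 0.03) and Fabp5 (0.12 ± 0.04). After thinning to 3000 UMIs no gene of this list was higher, 21 of 24 were lower and the median was -0.55, so these 3 calls ended. Interferon genes were lower in 14 of 27 cases and higher in none (median -0.33). Ifit3 had 6.94, 6.69 and 10.3 CPM in S phase cells, against 12.4, 26.9 and 18.3 CPM in non-cycling cells. Inflammatory genes were lower in 11 of 21 and higher in none (-0.31). The chemokine Ccl3 had 484, 433 and 302 CPM in S phase cells, against 630.4, 679 and 390.1 CPM in non-cycling cells, and Zfp36, which shortens the life of cytokine transcripts, had 347, 404 and 214 CPM in S phase cells, against 549, 692 and 315 CPM in non-cycling cells. In UMIs per cell, 17 of 24 axon-tract genes were higher in all 3 libraries (70.8%) and 0 lower. Of 27 interferon genes 6 were higher (22.2%) and 4 lower (14.8%), and of 21 inflammatory genes 11 (52.4%) and 2 (9.52%). For all tested genes these shares were 77.3% higher and 1.87% lower. A smaller share of interferon and inflammatory genes was thus higher per cell, and a larger share lower. Zfp36 had 2.90, 3.22 and 1.37 UMIs per S phase cell, against 3.29, 3.74 and 1.56 UMIs per non-cycling cell.

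Immediate early and heat shock genes went both ways, with 16 of 24 lower and 6 higher and a median of -0.42. The 6 that were higher are chaperones of growing and stressed cells: Hspd1 (0.77 ± 0.03), Hsp90aa1 (0.71 ± 0.03), Hsph1 (0.59 ± 0.08), Hspa8 (0.44 ± 0.02), Dnajb1 (0.32 ± 0.06) and Hspe1 (0.17 ± 0.03). Fos, an immediate early gene, was lower, with 658, 916 and 431 CPM in S phase cells, against 893, 1312 and 593 CPM in non-cycling cells. In each library Fos was lower in S phase than in non-cycling cells, while the levels of the libraries themselves overlapped between the classes. In UMIs per cell, 9 of the 24 genes of this list were higher in all 3 libraries (37.5%) and 6 lower (25%). For all tested genes these shares were 77.3 and 1.87%.

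The genes that fell furthest, by the ranking over all genes, included chromatin regulators, histones and genes of arrested cells. Kdm5b, a histone demethylase, had 12.4, 20.3 and 11.2 CPM in S phase cells, against 38.6, 41.0 and 37.4 CPM in non-cycling cells, which is 2.82-fold lower in S phase. Ccng2, a cyclin of arrested cells, had 22.8, 24.4 and 18.7 CPM in S phase cells, against 47.7, 58.0 and 39.9 CPM in non-cycling cells, and Mxd4, which opposes Myc, had 41.5, 49.2 and 44.1 CPM in S phase cells, against 85.8, 87.8 and 89.6 CPM in non-cycling cells. Meg3, a long non-coding RNA, Crebrf, Pdcd4 and Pcmtd2 had log2 fold changes of -1.26 ± 0.13, -1.04 ± 0.09, -0.93 ± 0.12 and -0.85 ± 0.11. Cxcl10, a chemokine, had 13.3, 16.7 and 12.1 CPM in S phase cells, against 13.9, 46.4 and 43.8 CPM in non-cycling cells. The classes overlapped, being nearly equal in the Gzmb-cko poly(I:C) library, and the call was lost with DESeq2 and without the library block.

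Markers of other cell types differed both between the 2 classes and between libraries. Monocyte markers summed to 699, 619 and 738 CPM in S phase cells, against 803, 767 and 826 CPM in non-cycling cells, mostly Lyz2, and 4 of 8 were lower by the test. Neutrophil markers summed to 1123, 758 and 3728 CPM in S phase cells, against 787, 1649 and 2752 CPM in non-cycling cells, and 1 of 6 tested was lower. Erythroid markers summed to 11825, 35513 and 59746 CPM in S phase cells, against 14836, 29030.1 and 56082 CPM in non-cycling cells, and 2 of 7 tested were higher. Choroid plexus markers, mostly Ttr, summed to 1999, 1896 and 3422 CPM in S phase cells, against 2091, 3939 and 6653 CPM in non-cycling cells, with Prlr at 0 in S phase. How far RNA of these cells enters the calls above was not tested gene by gene. Markers of natural killer and T cells summed to 4.40, 5.97 and 4.67 CPM in S phase cells, mostly Il7r, with Ncr1, Klrb1c and Cd3e at 0 in all 3 libraries.

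Against cells in G2 and M, S phase microglia were marked by early replication genes and by low levels of mitotic genes. Of 11553 genes tested, 1668 were higher in S phase (14.4%) and 1772 lower (15.3%), by the same edgeR test. With the mixed cells left out, 1924 were higher and 1894 lower. These classes too were cut by cycle genes, and 583, 297 and 437 of the G2 and M cells had at least 4 S genes as well. Cdt1 (chr8:122568015-122573554), which loads the helicase and is destroyed once S phase starts, had 61.4, 67.6 and 61.6 CPM in S phase cells, against 20.1, 17.6 and 17.4 CPM in G2 and M cells. Timeless, which protects the fork, had 47.8, 52.3 and 43.2 CPM in S phase cells, against 18.8, 12.5 and 14.4 CPM in G2 and M cells, and Mcm2 had 109, 101 and 96.2 CPM in S phase cells, against 42.6, 37.4 and 37.6 CPM in G2 and M cells. Cdca7, Zmynd19, Paqr4, Chek1 and E2f1 completed the 8 largest differences in this direction, with log2 fold changes of 1.74 ± 0.08, 1.58 ± 0.10, 1.37 ± 0.10, 1.34 ± 0.10 and 1.30 ± 0.08. None of the 3 S phase values of these genes overlapped the G2 and M values.

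In the other direction the differences were larger. Aspm (chr1:139454772-139494091), a spindle pole protein, had 3.603, 1.19 and 3.50 CPM in S phase cells, against 134, 186 and 126 CPM in G2 and M cells, which is 49.8-fold lower in S phase. Plk1, the mitotic kinase, had 2.27, 1.43 and 3.27 CPM in S phase cells, against 101, 126 and 96.6 CPM in G2 and M cells. Pif1, Fam83d, Prr11, Cdkn3, Kif23 and Kif20a had log2 fold changes from -5.21 ± 0.22 to -4.81 ± 0.14. Of 35 mitotic genes outside the rule, 35 were lower in S phase (median -3.23), as were 54 of 55 replication-dependent histones tested (median -2.94) and 8 of 11 cohesion genes (-0.21). Hist1h1b had 32.4, 104 and 57.2 CPM in S phase cells, against 621, 1746 and 655 CPM in G2 and M cells. Esco2 had 9.74, 6.21 and 15.2 CPM in S phase cells, against 79.2, 109.9 and 75.1 CPM in G2 and M cells. Both were thus higher in the class called G2 and M. That class includes the 583, 297 and 437 cells with at least 4 S genes, and their part in these levels was not tested.

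The replication lists were divided in this comparison. Licensing genes were higher in S phase in 15 of 24 cases and lower in 2 (median 0.38), polymerases in 18 and 4 of 30 (0.33), nucleotide synthesis in 13 and 4 of 21 (0.23), checkpoint and repair in 12 and 6 of 26 (0.14) and chromatin assembly in 8 and 8 of 21 (0.02). These medians moved with the cells used. With at most 1 G2/M gene checkpoint and repair turned to 6 higher, 9 lower and -0.04, chromatin assembly to 8, 11 and -0.15, and licensing and polymerases had medians of 0.20 and 0.11. After thinning to 3000 UMIs the medians were 0.74 for licensing, 0.88 for polymerases, 0.64 for nucleotide synthesis, 0.57 for checkpoint and repair (16 higher and 1 lower of 25) and 0.22 for chromatin assembly. Rrm2 was lower, with 49.2, 42.3 and 57.4 CPM in S phase cells, against 138, 147 and 94.6 CPM in G2 and M cells, and so was Brca1 (-0.34 ± 0.08), while Ccne1 (-0.01 ± 0.09) did not pass the test. G1/S regulators were higher in 8 and lower in 11 of 29 (-0.07), turning to 11 higher, 6 lower and 0.22 after thinning. Genes of the axon-tract and disease-associated list were higher in 9 and lower in 3 of 24 (0.08), immediate early and heat shock genes in 8 and 4 of 23 (0.12), and interferon genes in 2 and 3 of 26 (-0.02, turning to 0.10 with at most 1 G2/M gene). Homeostatic genes were higher in S phase in 17 of 27 cases and lower in 2 (median 0.11), inflammatory genes in 9 and 0 of 21 (0.15) and ribosome biogenesis in 13 and 0 of 16 (0.33). After thinning 11 homeostatic genes were higher and 4 lower of 27, and 2 inflammatory genes higher of 18. P2ry13, a purine receptor, had 177, 202 and 151 CPM in S phase cells, against 138, 171 and 118 CPM in G2 and M cells. Homeostatic genes as a list were thus lower than in non-cycling and mostly higher than in G2 and M microglia. Erythroid markers, lower in S phase in 7 of 7 cases, moved with this comparison, and their part in it was not tested.

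S phase microglia were also divided by the number of G2/M genes detected. With mixed cells left out, those with 2 or 3 of the G2/M genes (325, 164 and 239 cells) were set beside those with none (236, 174 and 155 cells). Their median totals were 8181, 7414.5 and 5477 UMIs with 2 or 3 and 6495, 6277.5 and 5097 UMIs with none. This split uses G2/M genes of the rule, so higher mitotic genes on 1 side follow from the choice. It is a description, with no test. Over 6234 genes, 1169 (18.8%) were higher with 2 or 3 G2/M genes in all 3 libraries and 1224 (19.6%) were lower. Pbk, a mitotic kinase, had 19.1, 19.7 and 24.97 CPM in cells with 2 or 3 G2/M genes, against 0.591, 0.842 and 1.18 CPM in cells with none. Rrm2 had 90.6, 98.5 and 117 CPM in cells with 2 or 3 G2/M genes, against 14.2, 4.21 and 14.2 CPM in cells with none, a mean log2 difference of 3.27 ± 0.88 (SD, n = 3 libraries). Cyclin A2 (Ccna2) had 20.1, 15.9 and 29.8 CPM in cells with 2 or 3 G2/M genes, against 1.18, 1.68 and 3.55 CPM in cells with none (2.90 ± 0.33), and Hist1h1b had 55.2, 229 and 122 CPM in cells with 2 or 3 G2/M genes, against 10.6, 30.3 and 8.28 CPM in cells with none (2.96 ± 0.73).

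Cells with 2 or 3 G2/M genes also had more of the replication transcripts. Licensing genes were higher in all 3 libraries in 20 of 24 cases (median log2 difference 0.47), polymerases in 25 of 29 (0.46), checkpoint and repair in 19 of 21 (0.74) and chromatin assembly in 19 of 21 (0.51), and none of these 4 lists had a gene lower in all 3. Nucleotide synthesis was higher in 14 of 21 and lower in 1 (0.38), G1/S regulators in 17 and 2 of 26 (0.44), histones in 8 and 1 of 14 (0.67) and mitotic genes in 20 and 0 of 21 (1.56). Fbxo5, which restrains the anaphase-promoting complex, had 39.5, 28.0 and 57.6 CPM in cells with 2 or 3 G2/M genes, against 7.10, 3.37 and 10.6 CPM in cells with none. E2f8 had 42.2, 45.4 and 45.8 CPM in cells with 2 or 3 G2/M genes, against 7.69, 10.9 and 10.6 CPM in cells with none, and Esco2 had 22.1, 15.1 and 35.4 CPM in cells with 2 or 3 G2/M genes, against 0.591, 1.68 and 1.18 CPM in cells with none. Homeostatic genes were lower in all 3 libraries in 23 of 27 cases and higher in none (median -0.13), and interferon genes were lower in 7 of 14 and higher in none (-0.37). Axon-tract genes went the other way, with 8 of 22 higher in all 3 and none lower (0.10). Isg15, an interferon-induced modifier, had 18.1, 9.85 and 13.2 CPM in cells with 2 or 3 G2/M genes, against 26.0, 60.6 and 18.9 CPM in cells with none, and the gap was widest in Ncr1-cre with poly(I:C).

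**Figure D4:**
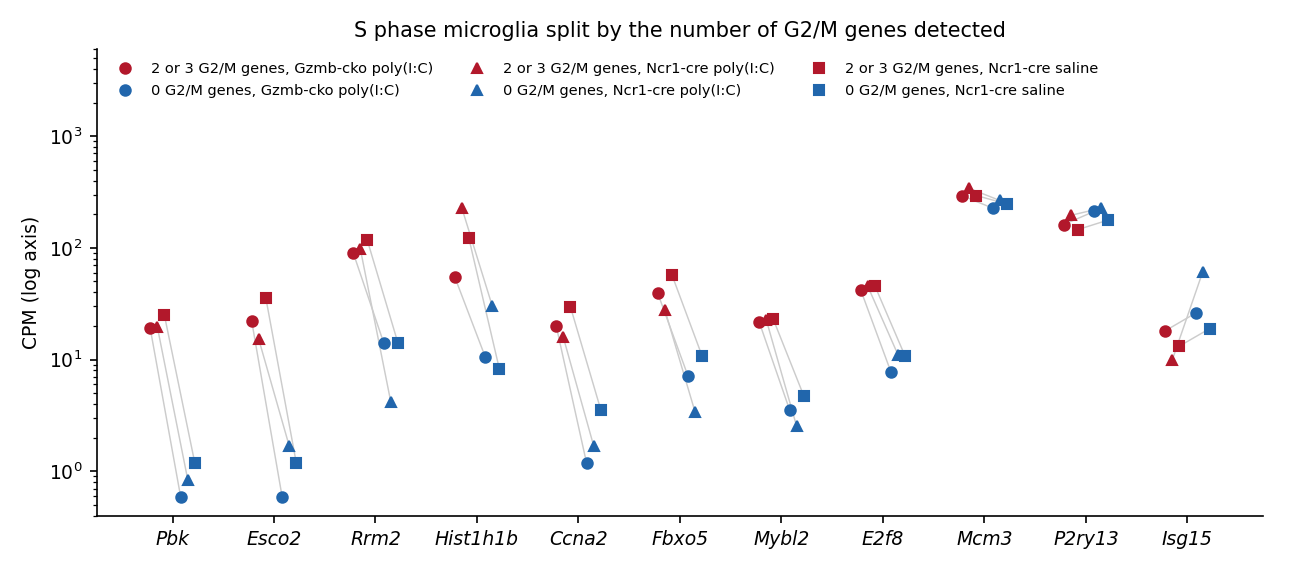
CPM on a log axis of 11 genes in S phase microglia with 2 or 3 G2/M genes (red, left) and with none (blue, right), 1 symbol per library. Lines join the 2 parts of a library. The genes from Pbk to E2f8 were higher in the red points in every library, while P2ry13 and Isg15 were lower.

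The first comparison of libraries asks how S phase microglia differed with poly(I:C), a model of viral infection in pregnancy, between the Ncr1-cre groups. Levels are CPM of the summed UMIs of S phase cells (4185340 UMIs with poly(I:C), 4283597 with saline), with exact Poisson and conditional binomial 95% intervals that cover counting error only. Of 6240 genes that reached 20 CPM in the higher library and 100 UMIs in both together, 347 (5.56%) were at least 1.5-fold higher with poly(I:C) and 106 (1.70%) at least 1.5-fold lower, so 76.6% of these genes were higher. This split rests on the scaling. With TMM scaling it was 140 higher and 185 lower (43.1% higher), and the median log2 ratio of all these genes was 0.02 with TMM, against 0.14 without it. Without mixed cells it was 307 higher and 124 lower. List medians below are to be read against that 0.14, and 71.4% of all genes had a ratio over 1.

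Inflammatory and immediate early genes were the lists that stood highest. Of 18 inflammatory genes measured, 17 were higher with poly(I:C), 6 of them by 1.5-fold, with a median log2 ratio of 0.44, or 0.33 with TMM and 0.38 without mixed cells. Ccl2 (chr11:82035571-82037453), which draws monocytes, had 134 CPM with poly(I:C) and 57.7 CPM with saline (ratio 2.33, interval 2.002 to 2.72). It was detected in 32.4% of S phase cells with poly(I:C) and 18.1% with saline. Ccl7, a related chemokine, had 19.1 CPM with poly(I:C) and 9.34 CPM with saline (ratio 2.05, interval 1.38 to 3.07), Il1a 62.6 CPM with poly(I:C) and 35.02 CPM with saline, and Zfp36 404 CPM with poly(I:C) and 214 CPM with saline (ratio 1.89, interval 1.74 to 2.05). Of 19 genes of the immediate early and heat shock list, 17 were higher (0.41, or 0.29 with TMM and 0.37 without mixed cells). Fos had 916 CPM with poly(I:C) and 431 CPM with saline (ratio 2.13, interval 2.01 to 2.25), Fosb 353 CPM with poly(I:C) and 175 CPM with saline, Atf3 66.7 CPM with poly(I:C) and 35.02 CPM with saline and Ier2 214 CPM with poly(I:C) and 116 CPM with saline. Non-cycling microglia had the same directions, with ratios of 2.52 for Ccl2, 2.20 for Zfp36 and 2.21 for Fos, and list medians of 0.57 and 0.44.

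Interferon genes were higher in 11 of 13 cases (median 0.31 in S phase, 0.12 in non-cycling cells), with Irf7 at 17.7 CPM with poly(I:C) and 10.97 CPM with saline (ratio 1.61, interval 1.10 to 2.37). Isg15 had a ratio of 1.40 (interval 1.04 to 1.89), and in non-cycling cells of 0.990. The 70 Cxcl10 UMIs of S phase cells with poly(I:C) came from 10 cells, 37 of them from a single cell, so no ratio is given for it. The difference between S phase and non-cycling cells in this was not tested. Homeostatic genes were higher in 22 of 27 (0.18, and 0.06 with TMM). Axon-tract and disease-associated genes were higher in 10 of 23 (-0.05, and -0.17 with TMM), turning to 0.06 after thinning.

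The replication lists differed little between the libraries. Licensing genes were higher in 18 of 24 cases (median 0.12), polymerases in 16 of 29 (0.01), nucleotide synthesis in 13 of 21 (0.11), checkpoint and repair in 15 of 21 (0.19), chromatin assembly in 13 of 21 (0.14) and cohesion genes in 8 of 10 (0.19), against 0.14 for all genes. With TMM these 6 medians lay between -0.11 and 0.07, those of polymerases and nucleotide synthesis turning below 0. Without mixed cells they were 0.08 for licensing, -0.0042 for polymerases, 0.05 for nucleotide synthesis, 0.07 for checkpoint and repair, 0.10 for chromatin assembly and 0.18 for cohesion. Genes of late S and mitosis were lower: mitotic genes were lower with poly(I:C) in 14 of 21 cases (-0.25, and -0.36 with TMM), with Tpx2, a spindle factor, at 11.9 CPM with poly(I:C) and 23.6 CPM with saline (ratio 0.507, interval 0.354 to 0.718) and Aurkb at 14.3 CPM with poly(I:C) and 23.8 CPM with saline. Ccna2 had 7.41 CPM with poly(I:C) and 14.7 CPM with saline (ratio 0.504, interval 0.317 to 0.786), Tk1 31.8 CPM with poly(I:C) and 49.5 CPM with saline (ratio 0.642, interval 0.513 to 0.801) and Esco2 6.21 CPM with poly(I:C) and 15.2 CPM with saline (ratio 0.409, interval 0.249 to 0.654). In G2 and M cells these genes had ratios over 1, of 1.28 for Tpx2, 1.23 for Ccna2 and 1.46 for Esco2. S phase cells without any G2/M gene were 34.0% of S phase cells with poly(I:C) and 25.7% with saline. The rule limits the G2/M genes detected in an S phase cell, and detection depends on the UMIs of the cell. Median totals of S phase cells were 7167 UMIs with poly(I:C) and 5591.5 UMIs with saline. The part of this limit in the lower levels of late S and mitotic genes was not tested.

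Histones were lower in 10 of 14 cases (-0.32, and -0.43 with TMM), while their median in non-cycling cells was 0.14. Hist1h2ap had 16.2 CPM with poly(I:C) and 59.1 CPM with saline (ratio 0.275, interval 0.207 to 0.361), whereas Hist1h1b had 104 CPM with poly(I:C) and 57.2 CPM with saline (ratio 1.82, interval 1.55 to 2.13). With S phase limited to cells with at most 1 G2/M gene the histone median turned to 0.10.

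The largest single ratios were a mixed set. Higher with poly(I:C) were Phpt1, a phosphohistidine phosphatase (36.3 CPM with poly(I:C) and 12.6 CPM with saline), Cep85l (27.5 CPM with poly(I:C) and 10.97 CPM with saline), Nutf2, a nuclear transport factor (45.6 CPM with poly(I:C) and 18.7 CPM with saline), and Mir142hg, the host transcript of a myeloid microRNA (21.98 CPM with poly(I:C) and 9.10 CPM with saline). Fam208b, Nme2, Sdccag3, Tnks and H2-T23 had ratios of 2.20, 2.17, 2.16, 2.16 and 2.16. In non-cycling microglia these 9 had ratios from 1.45 to 2.62, all over 1. Nme2 has a close paralog in Nme1, and its reads may be split between them.

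Among the lowest were genes of neutrophils rather than of microglia. Stfa1, a stefin, had 115 CPM with poly(I:C) and 691 CPM with saline (ratio 0.166, interval 0.150 to 0.183), and its 7 highest cells held 70.6% of its UMIs in the saline library. Stfa2l1, Stfa3 and Stfa2, its near-identical relatives, had ratios of 0.206, 0.231 and 0.326, and Lcn2, a granule protein, 0.301. The 8 neutrophil markers moved with them: they summed to 758 CPM with poly(I:C) and 3728 CPM with saline in S phase cells, with 8 of 8 detected in both, S100a9 leading. Without mixed cells the ratios of Stfa1 and Lcn2 were 0.249 and 0.229. Anxa1 had 5.02 CPM with poly(I:C) and 32.7 CPM with saline (ratio 0.154, interval 0.0921 to 0.244), from 4 cells with poly(I:C) and 21 with saline, and a ratio of 0.102 without mixed cells. Mt3, Wfdc21 and Hist1h4d completed the 10, with ratios of 0.249, 0.271 and 0.327, and of 0.374, 0.424 and 0.310 without mixed cells.

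The second comparison sets Gzmb-cko with Ncr1-cre, both with poly(I:C). Both comparisons use the same Ncr1-cre library with poly(I:C), so opposite ratios in the 2 are not separate observations. S phase cells of the Gzmb-cko library held 7493301 UMIs. Of 6238 genes, 29 (0.465%) were at least 1.5-fold higher in Gzmb-cko and 163 (2.61%) at least 1.5-fold lower, so 15.1% of these genes were higher. With TMM scaling there were 54 higher and 80 lower (40.3% higher), and the median log2 ratio of all genes was 0.02, against -0.07 without it. Without mixed cells there were 25 higher and 201 lower. A ratio over 1 was found for 38.9% of genes.

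Genes of axon-tract and disease-associated microglia were higher in Gzmb-cko S phase cells. Of 23 measured, 20 were higher, 5 of them by 1.5-fold, with a median log2 ratio of 0.29, or 0.38 with TMM and 0.30 without mixed cells. Spp1 (chr5:104435118-104441050), osteopontin, had 1533 CPM in Gzmb-cko and 414 CPM in Ncr1-cre cells (ratio 3.71, interval 3.52 to 3.90), and 321 CPM with saline. It was detected in 35.04% of S phase cells in Gzmb-cko with poly(I:C), 15.5% in Ncr1-cre with poly(I:C) and 30.4% in Ncr1-cre with saline, and its 9, 5 and 7 highest cells held 60.0, 83.2 and 67.8% of its UMIs. A single cell of Ncr1-cre with poly(I:C) had 1155 of its 1731 UMIs. Igf1, a growth factor, had 130.0 CPM in Gzmb-cko and 68.1 CPM in Ncr1-cre cells (ratio 1.91, interval 1.67 to 2.19), Lgals3, galectin-3, 73.4 CPM in Gzmb-cko and 40.4 CPM in Ncr1-cre cells (ratio 1.82, interval 1.53 to 2.17) and Gpnmb, a transmembrane glycoprotein, 19.8 CPM in Gzmb-cko and 3.35 CPM in Ncr1-cre cells (ratio 5.90, interval 3.41 to 11.1, and 10.9 without mixed cells). Non-cycling cells had ratios of 2.93, 1.58, 1.48 and 2.43 for these 4, and a list median of 0.36. Igf1 was detected in 29.4, 25.8 and 24.9% of S phase cells. Lgals3 was detected in 13.95, 8.78 and 14.8%, so its share was highest with saline. The 9, 5 and 7 highest cells held 45.1, 54.4 and 38.1% of the Lgals3 UMIs. In Ncr1-cre with poly(I:C) 1 cell had 46 of the 169 Lgals3 UMIs. The intervals cover counting error only and leave out this spread between cells.

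**Figure D5:**
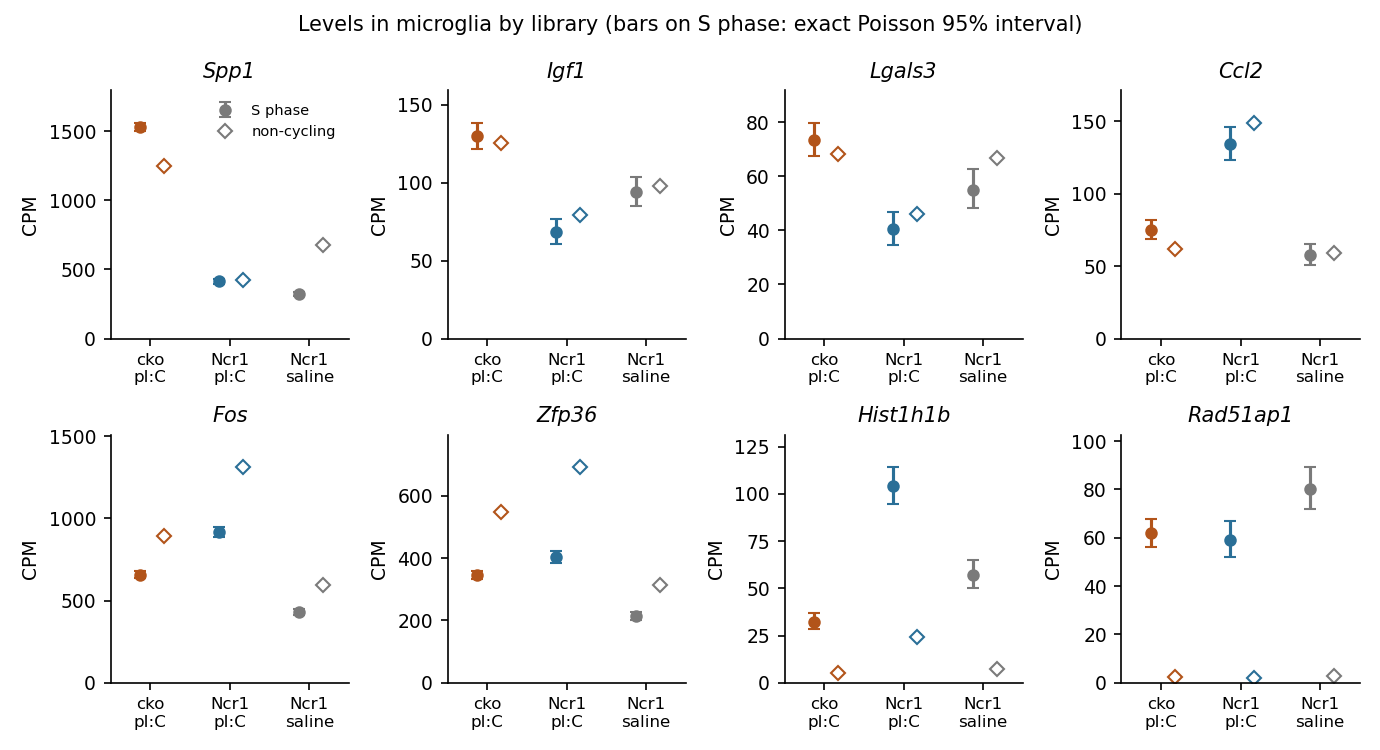
CPM of 8 genes in S phase microglia (filled circles with exact Poisson 95% intervals) and in non-cycling microglia (open diamonds) of the Gzmb-cko poly(I:C) (cko pI:C), Ncr1-cre poly(I:C) (Ncr1 pI:C) and Ncr1-cre saline (Ncr1 saline) libraries. Spp1, Igf1 and Lgals3 were highest in the Gzmb-cko library in both classes, Ccl2, Fos and Hist1h1b in Ncr1-cre with poly(I:C), and Rad51ap1 differed mainly by class.

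Other genes at least 1.5-fold higher were Mid1, an X-linked ubiquitin ligase (25.6 CPM in Gzmb-cko and 13.1 CPM in Ncr1-cre cells), the interferon-induced Xaf1 (23.8 CPM in Gzmb-cko and 12.4 CPM in Ncr1-cre cells) and Rtp4 (24.4 CPM in Gzmb-cko and 14.3 CPM in Ncr1-cre cells), Ramp1, a receptor partner (52.7 CPM in Gzmb-cko and 31.8 CPM in Ncr1-cre cells), Ino80b, Mgmt and Chchd6. Xaf1 and Rtp4 stood apart from the rest of the interferon list, in which 5 of 13 genes were higher and the median was -0.04, turning to 0.04 with TMM and at -0.09 without mixed cells. Irf7 had 10.1 CPM in Gzmb-cko and 17.7 CPM in Ncr1-cre cells (ratio 0.574, interval 0.411 to 0.801). Ino80b and Mgmt, at ratios of 1.71 and 1.64, lost their direction after thinning.

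Several inflammatory and immediate early genes were lower in Gzmb-cko cells. Of 18 inflammatory genes 13 were lower (median -0.15, and -0.23 without mixed cells), a share near that of all genes, of which 3812 of 6238 were lower (median -0.07). Ccl2 was at 75 CPM in Gzmb-cko and 134 CPM in Ncr1-cre cells (ratio 0.559, interval 0.496 to 0.629), Ccl7 at 10.01 CPM in Gzmb-cko and 19.1 CPM in Ncr1-cre cells and Il1a at 40.2 CPM in Gzmb-cko and 62.6 CPM in Ncr1-cre cells. Of 19 genes of the immediate early and heat shock list, 15 were lower (-0.27, and -0.30 without mixed cells). Fos had 658 CPM in Gzmb-cko and 916 CPM in Ncr1-cre cells (ratio 0.718, interval 0.689 to 0.750), Hsph1 26.3 CPM in Gzmb-cko and 51.8 CPM in Ncr1-cre cells and Hspa8 1483 CPM in Gzmb-cko and 2101 CPM in Ncr1-cre cells. With TMM the inflammatory median was -0.06 and the immediate early one -0.19, against 0.02 for all genes. For Fos the saline library was lower than both, at 431 CPM, and for Ccl2 it was at 57.7 CPM.

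Homeostatic genes were higher in 10 of 27 cases (-0.03, turning to 0.06 with TMM and at -0.07 without mixed cells). Replication genes were close to even or somewhat lower. Polymerases were lower in 16 of 29 cases (median -0.03), nucleotide synthesis in 14 of 21 (-0.08), licensing in 18 of 24 (-0.11), chromatin assembly in 17 of 21 (-0.18), checkpoint and repair in 16 of 21 (-0.25) and cohesion in 9 of 10 (-0.34). With TMM polymerases turned to 0.05 and nucleotide synthesis to 0.01, and the other 4 medians lay between -0.25 and -0.03. Without mixed cells polymerases and licensing were at -0.06 and -0.17. In non-cycling cells the medians of checkpoint and repair and of cohesion were 0.04 and -0.28. Msh6, of mismatch repair, had 45.2 CPM in Gzmb-cko and 66.7 CPM in Ncr1-cre cells (ratio 0.679, interval 0.578 to 0.798). Stag1 and Stag2, alternative cohesin subunits, had ratios of 0.656 and 0.670. Mitotic genes were even, with 11 of 21 higher (0.04, with -0.04 after thinning and 0.02 without mixed cells). Ccnd2, a D cyclin, had 5.87 CPM in Gzmb-cko and 19.1 CPM in Ncr1-cre cells (ratio 0.307, interval 0.208 to 0.449, and 0.205 without mixed cells) in S phase cells, while its ratio in non-cycling cells was 1.13.

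Histones were lower in 13 of 14 cases, 7 of them by 1.5-fold, with a median of -0.42. Hist1h1b had 32.4 CPM in Gzmb-cko and 104 CPM in Ncr1-cre cells (ratio 0.312, interval 0.266 to 0.366), Hist1h1e 34.2 CPM in Gzmb-cko and 97.01 CPM in Ncr1-cre cells (ratio 0.352, interval 0.300 to 0.413) and Hist1h2ae 11.3 CPM in Gzmb-cko and 29.1 CPM in Ncr1-cre cells (ratio 0.389, interval 0.291 to 0.518). These 3 had ratios of 0.208, 0.300 and 0.380 in non-cycling cells too, and the saline library lay at 57.2, 60.2 and 36.9 CPM. The list median in non-cycling cells was -0.38.

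The remaining lower genes include several that red blood cells express. Cd24a had 8.01 CPM in Gzmb-cko and 41.1 CPM in Ncr1-cre cells (ratio 0.195, interval 0.143 to 0.263), Bpgm, an enzyme of red cell glycolysis, 21.4 CPM in Gzmb-cko and 47.3 CPM in Ncr1-cre cells and Ube2l6 12.9 CPM in Gzmb-cko and 27.0 CPM in Ncr1-cre cells. Erythroid markers summed to 11825 CPM in Gzmb-cko and 35513 CPM in Ncr1-cre S phase cells, with 7 of 8 detected in both and Hemgn at 0. Without mixed cells the ratios of Cd24a, Bpgm and Ube2l6 were 0.350, 0.905 and 0.955, so those of Bpgm and Ube2l6 were close to 1. Fam13b, Igfbp2 and Nedd4 had ratios of 0.443, 0.461 and 0.475, and of 0.389, 0.333 and 0.291 without mixed cells.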

How the data were processed

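Single CD11b+ cells of fetal mouse brain were sequenced as 3 libraries, 1 per group. The values are raw UMI counts per gene and cell, deposited by the authors without normalisation. Cell Ranger 5.0.0 wrote them, per the file headers. Version 3.0.1, with STAR and mm10, is named in the submitters' processing notes. How barcodes were called cells is not stated in the sources. Cells needed at least 500 genes and no more than 10% mitochondrial UMIs. The members of the S phase class, the gene lists and the comparisons were chosen with earlier results of these data known.

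UMIs were summed per library and class. S phase was tested against non-cycling and against G2 and M cells with edgeR 4.0.16 (quasi-likelihood, TMM scaling, filterByExpr, library as a block, R 4.3.3) at a Benjamini-Hochberg adjusted p of 0.05, without the genes used by the rule. On simulated data with 200 genes changed 2-fold in the first of these comparisons, 198 were called, with 5 false calls among 12133 genes tested. The simulated libraries shared a common baseline and a fixed spread, and only genes above a minimum expected count were changed. The real libraries differ in treatment or genotype, so these counts do not give the error rate of the real calls. The labels carry no replicate numbers, and the library is the pair because both classes were cut from it. DESeq2 1.42.0 was an alternative. Libraries were compared as CPM of the summed UMIs with exact 95% intervals and no test, since there is 1 library per group. A gene at 0 UMIs is limited by 3 counts. Doublets were called with Scrublet in scanpy 1.11.5, and cells were thinned to 3000 UMIs where shares are compared. Class members detected with few UMIs are undercounted, and UMIs of free RNA are not removed.

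Genes were named by size: the 12 largest changes per direction against non-cycling cells, 8 against G2 and M cells and 10 between libraries. They needed at least 20 CPM in the higher class. Left out were Xist, Tsix, Y-linked, mitochondrial, ribosomal, hemoglobin and predicted genes and markers of other cells. Other X-linked genes, such as Mid1, were kept. Up to 4 members of each list by change and 4 by level were named too. Some genes that met this rule are not reported here. Further list members were named after their values were seen, as were the mixed cells, the split by G2/M genes and the promoter sequences chosen for printing. Of 27998 gene IDs, 27645 (98.7%) were matched to the GRCm38 annotation.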

Additional observations from a re-analysis of the deposited data

Results flagged for a closer look

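Anxa1, which encodes annexin A1, an anti-inflammatory protein abundant in neutrophils, was lower with poly(I:C) than with saline in the S phase microglia of the Ncr1-cre libraries, and nearly equal in the non-cycling ones. Its log2 ratio, poly(I:C) over saline, was -2.70 in S phase cells and 0.02 in non-cycling cells. The levels were 5.02 CPM with poly(I:C) and 32.7 CPM with saline in S phase cells, and 22.4 CPM with poly(I:C) and 22.1 CPM with saline in non-cycling cells. The difference between the classes was not tested, since each has 1 library per group. It rests on 21 UMIs in 4 cells with poly(I:C) and 140 UMIs in 21 cells with saline.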

How the results depend on the processing

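Counts of genes against non-cycling cells were 1607 higher and 1124 lower with DESeq2, and 1318 and 457 with no replicate block, that is, without the library pairing. Without that block, against non-cycling cells, 3 of 28 homeostatic, 2 of 24 axon-tract, 5 of 27 interferon and 5 of 21 inflammatory genes were lower. Against G2 and M cells 3 of 28 homeostatic, 0 of 21 inflammatory and 9 of 30 polymerase genes were higher without it. The 28 homeostatic entries are gene IDs of the 27 genes of that list. Set against all other microglia, 0 of 35 mitotic genes were higher and 35 lower, and 0 of 56 histones higher and 50 lower. The lower count was 1357 after thinning to 3000 UMIs and 1455 against all other microglia. Against G2 and M cells they were 586 higher and 688 lower with DESeq2, 335 and 597 with no replicate block, and 1111 and 1030 after thinning. Leaving out 1 library at a time gave 2172 to 2514 higher and 1828 to 2095 lower against non-cycling cells, and 1144 to 1486 and 1203 to 1586 against G2 and M cells. For poly(I:C) against saline, 140 genes were higher and 185 lower with TMM, 1340 and 704 with a filter of 10 UMIs, and 102 and 68 with a filter of 50 CPM. The higher count was 154 after thinning, and the lower count 190 with mitochondrial, ribosomal and hemoglobin genes out of the total. The histone median turned to 0.10 with at most 1 G2/M gene. For Gzmb-cko against Ncr1-cre, 54 were higher and 80 lower with TMM, 545 and 1071 with 10 UMIs, 10 and 46 with 50 CPM, 66 and 255 with a stricter cell filter, and 51 and 245 with at least 5 S genes. The lower count was 265 with at most 1 G2/M gene. After thinning, the log2 ratios of Ino80b, Mgmt and Bpgm turned to -0.050, -0.041 and 0.81. S phase shares in Gzmb-cko with poly(I:C), Ncr1-cre with poly(I:C) and Ncr1-cre with saline were 7.56, 5.96 and 5.32% with at least 5 S genes, 14.99, 12.7 and 12.8% with at least 3, 6.67, 5.66 and 4.95% with at most 1 G2/M gene and 5.13, 4.90 and 5.09% after thinning, and 9.58% in Ncr1-cre with poly(I:C) with the lowest UMI total of the saline library as the limit. The cause of these changes was not tested. Depth limits detection: genes with fewer than 100 UMIs over 2 libraries were left out of the counts of genes past 1.5-fold. List members needed only a mean of 10 CPM over the S phase cells of the libraries. Some of those named, such as Esco2 and Ccna2 for poly(I:C) against saline, were below 100 UMIs.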

Other observations

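Among markers of cell classes other than microglia, those of radial glia and neural progenitors had a higher summed level in S phase microglia. They summed to 119, 172 and 181 CPM in S phase cells, against 96.1, 128 and 124 CPM in non-cycling cells, and 3 of 7 tested were higher and 1 lower by edgeR. Nes, which encodes the intermediate filament nestin, led them, with 79.9, 128 and 81.9 CPM in S phase cells, against 52.8, 81.5 and 51.3 CPM in non-cycling cells, and a log2 fold change of 0.60 ± 0.05. In both poly(I:C) libraries the rise of the sum was that of Nes, and the other markers together were slightly lower in S phase. Nes was higher still in G2 and M, where the log2 fold change of S phase over G2 and M cells was -0.50 ± 0.05. Ptprz1, a receptor phosphatase, had 1.57 ± 0.26 against non-cycling cells, while Sox2, at 0.17 ± 0.33, did not pass the test. Markers of B cells were lower, in 2 of 3 tested: Cd79b, a chain of the B cell receptor complex that was detected here in microglia, had 90.3, 79.8 and 87.8 CPM in S phase cells, against 116, 111 and 107 CPM in non-cycling cells.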
